A study of Mus musculus with 27 samples.

Results

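Cerebellar tumours of Ptc1+/- mice were set against cerebellar tumours driven by SmoM2. The members were chosen by their array titles and not by a measured value: 2 Ptc1+/- arrays and 19 SmoM2 arrays, which make up 21 of the 27 arrays of the series. SmoM2 is an activated form of Smoothened, and the 19 arrays held tumours of mice that carried it with Math1-cre (3 arrays), Tlx3-cre (3), Olig2-tva-cre (7) or hGFAP-cre (6). The 4 SmoM2 groups entered the comparison with equal weight. Cerebellar tissue without tumour (6 arrays, 2 from Olig2-tva-cre, 1 from hGFAP-cre and 2 from Mxi1-cre mice with SmoM2, and 1 from Ptc1+/- mice) gave a background level. Each cre is driven from a gene or promoter of a cell class, the granule neuron lineage for Math1 and a broad progenitor pool for the human GFAP promoter, whereas a germline Ptc1 allele is present in every cell. The ages of the mice, the nature of the Ptc1 allele and the number of animals behind a sample are not given in the sources used here. The labels call the arrays of a group biological replicates and name no animals, which limits what a p-value covers to the variation among these arrays.

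Hedgehog signalling expands the granule neuron precursors of the developing cerebellum. The receptor Patched, encoded by Ptch1 (Ptc1), holds Smoothened inactive until a Hedgehog ligand binds, and active Smoothened releases Gli transcription factors that switch on targets such as Gli1 and Ptch1 itself. Loss of Patched and activation of Smoothened therefore enter the same pathway at neighbouring steps, and mice with either lesion develop medulloblastoma, a tumour of this precursor lineage.

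Expression was read as MAS5 signal on Affymetrix arrays, and levels below are log2 of the signal after each array was scaled to a common mean. Values under 3.37 were raised to that floor. The 2 Ptc1+/- arrays were not alike in quality. Before scaling, replicate 1 had a trimmed mean signal of 91.7 and replicate 2 of 47.1, against 42.4 to 205.3 in the SmoM2 arrays, which made replicate 2 the second dimmest of the tumour arrays. The pair correlated at 0.865 across genes, within the range of pairs of Olig2-tva-cre (0.818 to 0.948) and hGFAP-cre tumours (0.832 to 0.944) and below every pair of Math1-cre and Tlx3-cre tumours. The log2 ratio of 3' to 5' control probe sets was 0.05 and 0.07, at the low end of the SmoM2 range of -0.15 to 1.88. Markers of granule neuron precursors fitted the tissue label: Atoh1, the transcription factor that specifies these cells, stood at 10.90 and 10.31 in the Ptc1+/- tumours, and tissue without tumour stood at 5.32 ± 0.78 (SD, n = 6).

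Ptch1 was the gene of the pathway that differed most. Its level was 9.38 and 8.40 in the Ptc1+/- tumours, and 10.62 (lowest), 11.52 (median) and 12.29 (highest) in the SmoM2 tumours. Every SmoM2 array lay above both Ptc1+/- arrays, and the log2 difference was -2.57 (SE 0.29, limma adjusted p = 1.13e-05), or 5.92-fold. Ptch1 was lower against each driver taken singly, by values from -2.38 against Tlx3-cre (adjusted p = 0.00208) to -2.78 against Olig2-tva-cre tumours (adjusted p = 1.61e-05). A second of its 3 probe sets stood at 8.16 and 6.84 against a SmoM2 median of 8.69, which overlapped the SmoM2 range. The third was at the floor in both Ptc1+/- arrays, and used alone it gave -1.67 with no call (adjusted p = 0.494). Where the probe sets lie relative to the disrupted part of the Ptc1 allele was not examined, so the Ptch1 signal does not check the label. The 1 array of tissue without tumour from Ptc1+/- mice stood at 10.42, among the other non-tumour arrays at 9.93 to 10.58.

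**Figure D1:**
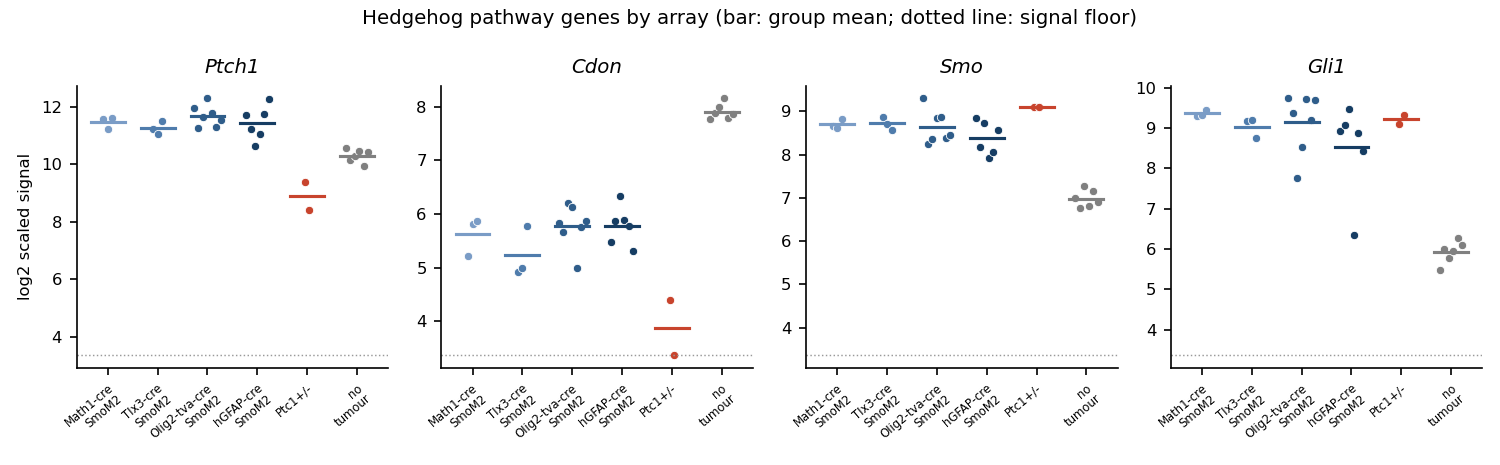
Log2 scaled signal (vertical axis) of Ptch1, Cdon, Smo and Gli1 in each array (points) by group, with the group mean as a bar and the signal floor as a dotted line. Both Ptc1+/- arrays lie below all 19 SmoM2 arrays for Ptch1 (9.38 and 8.40 against 10.62 or more) and Cdon, and inside the SmoM2 range for Smo and Gli1.

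The second gene of the pathway to pass the test was Cdon, a cell surface co-receptor that presents Hedgehog ligand to Patched. Cdon stood at 4.39 in replicate 1 and at the floor in replicate 2, against 4.92, 5.78 and 6.33 (lowest, median and highest) in the SmoM2 tumours and 7.91 ± 0.14 (SD, n = 6) in tissue without tumour. The groups did not overlap, and the difference was -1.73 (SE 0.30, limma adjusted p = 0.00536), a bound since 1 array was at the floor. Boc and Gas1, the other co-receptors, differed by 0.10 and -0.58 without passing (adjusted p = 0.92 and 0.317). Without replicate 2, Cdon no longer passed.

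The other Hedgehog genes did not pass the test. Of 11 target genes tested 1 was lower (Ptch1), 0 were higher and 10 did not pass, with a median difference of -0.14. Of 17 pathway components 1 was lower (Cdon), 0 were higher and 16 did not pass, with a median of -0.01, beside 0.03 over all genes tested. Among these 16, Spop stood at 7.70 and 7.74, below the SmoM2 range of 8.045 to 9.249 (difference -0.91, SE 0.24, limma adjusted p = 0.0831). Gli1, the target most often used to read pathway activity, stood at 9.11 and 9.33 against 6.36, 9.20 and 9.74 in the SmoM2 tumours (difference 0.20, SE 0.47, limma adjusted p = 0.896). Both values lay inside the SmoM2 range, and tissue without tumour stood at 5.93 ± 0.28 (SD, n = 6). Smo, which encodes Smoothened, stood at 9.09 and 9.09 against 7.93, 8.61 and 9.30 (difference 0.48, SE 0.24, adjusted p = 0.427). Both Smo values lay inside this range, but whether its probe sets also read the SmoM2 transcript was not examined. Mycn, which encodes the N-Myc growth regulator, and Ccnd1, which encodes cyclin D1, were likewise inside the SmoM2 range, with differences of 0.28 (adjusted p = 0.858) and 0.15 (adjusted p = 0.839). Sfrp1, a secreted Wnt antagonist, stood at 10.98 and 11.25 against 10.24 to 11.85. Pdlim3, a cytoskeletal adaptor and target in these tumours, split the pair, at 9.27 in replicate 1 and 5.97 in replicate 2 against 7.35 to 11.07 (difference -1.79, SE 0.53, adjusted p = 0.144). Hhip, a decoy receptor for the ligand, did so too, at 8.09 and 5.85 against 6.44 to 8.54. None of 13 genes of the primary cilium, the organelle in which the pathway signals, passed (median 0.20).

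Across all 14037 genes tested, limma called 8 higher in the Ptc1+/- tumours (0.057% of genes) and 68 lower (0.484%), which together made 76 (0.541%). The unadjusted p was under 0.05 for 677 higher and 982 lower genes. Both Ptc1+/- arrays lay above all 19 SmoM2 arrays for 98 genes (0.698%) and below all of them for 134 (0.955%). Of those 98 genes, 8 passed the filter on low values only through the Ptc1+/- arrays, and of the 134 none did. Among the called genes, both Ptc1+/- arrays lay outside the SmoM2 range for 8 of the 8 higher and 44 of the 68 lower ones. The differences of called genes ran from 0.90 to 4.03 in the higher and from -0.89 to -3.71 in the lower genes. The count of calls rested on few arrays: 39 of the 76 calls were kept without Ptc1+/- replicate 1 and 11 without replicate 2, where a lone Ptc1+/- array is assumed to vary like the other groups. Weighting arrays by quality kept 8 calls and a covariate for array brightness kept 7. Ptch1, Aqp4 and Foxd1 were among the kept genes in all 4 of these fits.

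Foxd1 had the largest difference of all called genes. It encodes a forkhead transcription factor of the developing forebrain, retina and stromal cells, and it was on the list of mural and meningeal markers. Foxd1 stood at 8.55 and 8.37 in the Ptc1+/- tumours and at 3.37, 4.33 and 6.22 (lowest, median and highest) in the SmoM2 tumours. The groups were far apart, with 4 of the SmoM2 arrays at the floor and tissue without tumour at 5.11 ± 0.48 (SD, n = 6). The difference was 4.03 (SE 0.57, limma adjusted p = 0.000397), or at least 16.3-fold since the arrays at the floor may lie lower, and it passed against each of the 4 drivers singly, from 3.48 against hGFAP-cre (adjusted p = 0.00303) to 4.52 against Olig2-tva-cre tumours (adjusted p = 0.000239). It passed under each of the other ways of processing that were tried and without each tumour array in turn. The other 13 tested markers of that list did not pass: Col1a1, a fibrillar collagen, stood at 5.31 and 4.62 against 4.22 to 7.01, and Dcn, a fibroblast proteoglycan, at 7.61 and 9.05 against 7.42 to 9.17. The list's median difference was -0.16.

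Another 7 genes were called higher, and 3 of them (Prl, Slco1a5 and Igkv8-30) passed the filter on low values only through the 2 Ptc1+/- arrays, so they could be tested only because they were high there. Prl, the pituitary hormone prolactin, stood at 5.94 and 7.13 against 3.37, 3.78 and 5.89 in the SmoM2 tumours, 6 of which were at the floor (difference 2.67, SE 0.53, limma adjusted p = 0.0143, a bound). Genes of 3 other pituitary hormones, looked up after the Prl values were seen, lay inside the SmoM2 range. Gh stood at 5.77 and 4.95 against 3.37 to 5.88, Pomc at 5.07 and 5.86 against 4.87 to 6.96, and Cga at 3.37 and 4.09 against 3.37 to 5.12. Slco1a5, an organic anion transporter, stood at 5.55 and 6.22 against 3.37, 3.71 and 5.14 (difference 2.07, SE 0.44, adjusted p = 0.0249). Numbl, a relative of the Notch inhibitor Numb, stood at 8.41 and 8.51 against 6.22, 7.31 and 8.24 (difference 1.29, SE 0.30, adjusted p = 0.0427). Gm26588, Sgce (epsilon-sarcoglycan) and Hdhd5 were higher by 1.05, 1.00 and 0.90 (adjusted p = 0.0263, 0.0264 and 0.0363). The eighth was Igkv8-30, an immunoglobulin kappa segment at 6.09 and 7.26 against 3.37 to 5.07, outside the rule for named genes and given because the count is small. In all 8 genes both Ptc1+/- arrays exceeded every SmoM2 array. Without replicate 2, Foxd1 was the 1 of these 8 genes that still passed. Numbl and Hdhd5 did not pass without replicate 1 either, and for Numbl the call was lost without any of 11 of the 21 tumour arrays, among them every Math1-cre and Tlx3-cre array.

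**Figure D2:**
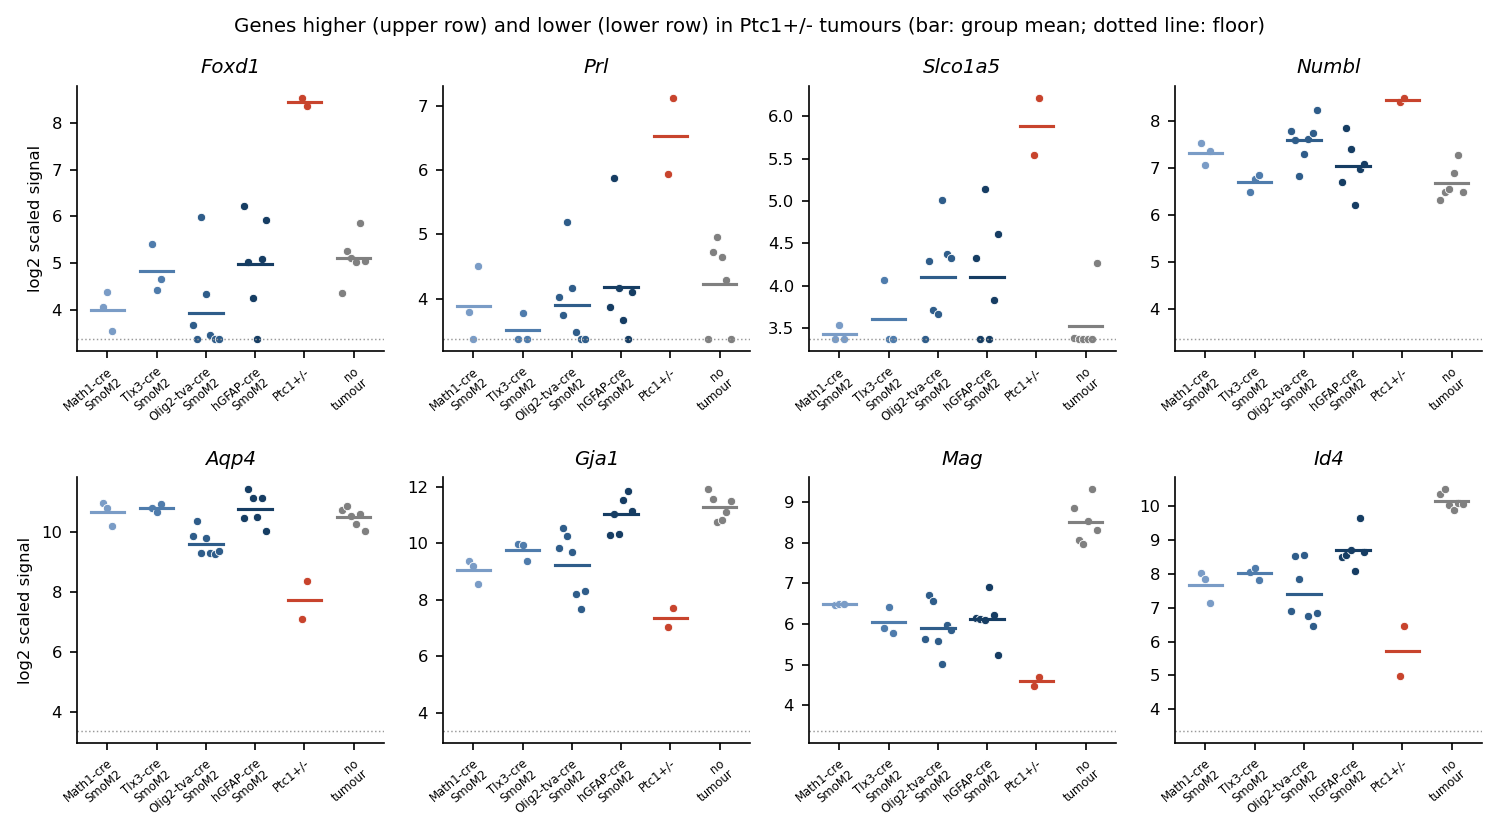
Log2 scaled signal (vertical axes, each with its own range) of 4 genes higher and 4 genes lower in Ptc1+/- tumours, per array (points) and as group means (bars), with the floor as a dotted line. Foxd1 at 8.55 and 8.37 stands above every SmoM2 array, and Aqp4 at 7.09 and 8.36 below every one, while for Gja1 and Id4 replicate 2 overlaps the lowest SmoM2 array.

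Among glial genes, 2 of 17 on the astrocyte list and 3 of 13 on the oligodendrocyte list were called lower, beside 0.484% of all genes. The lists were chosen with earlier results of these data known, so no excess is read. Aqp4, the water channel of astrocyte endfeet, stood at 7.09 and 8.36 against 9.26, 10.46 and 11.42 in the SmoM2 tumours and 10.51 ± 0.31 (SD, n = 6) in tissue without tumour. The groups did not overlap, and the difference was -2.74 (SE 0.31, limma adjusted p = 1.13e-05), or 6.67-fold. It was smallest against Olig2-tva-cre tumours, at -1.88 (adjusted p = 0.0103), and largest against Tlx3-cre tumours, at -3.08 (adjusted p = 0.000115). Its 3 probe sets agreed in direction, but the dimmest differed by -0.78 with no call (adjusted p = 0.602). Gja1, the main gap junction connexin of astrocytes, stood at 7.03 and 7.72 against 7.69, 9.95 and 11.85. Replicate 2 overlapped the lowest SmoM2 array, and the difference was -2.39 (SE 0.49, adjusted p = 0.0182), negative with each of 6 probe sets. Taken singly, Gja1 passed against hGFAP-cre tumours, at -3.66 (adjusted p = 0.000943), and not against the other drivers. It did not pass without Ptc1+/- replicate 1 (-2.05, adjusted p = 0.134) or replicate 2 (-2.74, adjusted p = 0.0944).

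The list of astrocytes and Bergmann glia, the radial glia of the cerebellum, had 2 of its 17 members lower (Aqp4 and Gja1), 0 higher and 15 that did not pass. Its median difference was -1.01 beside 0.03 over all genes, and 14 members had a negative sign. The summed signal of the list was 8486 in replicate 1 and 20893 in replicate 2, against 14292 to 27420 in the SmoM2 tumours, so that only replicate 1 lay below them. Fabp7, a fatty acid binding protein of radial glia, stood at 9.40 and 9.27 against 10.31 to 12.65 (difference -1.88, SE 0.56, limma adjusted p = 0.146). Gfap and Apoe split the pair. Gfap, the astrocyte filament, stood at 7.88 in replicate 1, below all SmoM2 tumours, and at 11.47 in replicate 2, inside their range of 8.69 to 12.13. Apoe, an astrocyte apolipoprotein, stood at 10.39 and 13.25, below and above the SmoM2 range of 10.57 to 13.13. Slc1a3, the glutamate transporter of Bergmann glia, stood at 10.99 and 10.71, both inside the range of 10.46 to 12.07. In bulk tissue, fewer cells of a type and less RNA per cell cannot be told apart.

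Of 13 oligodendrocyte and myelin genes tested, 3 were lower (Mag, Cldn11 and Cnp), 0 were higher and 10 did not pass. Mag, a myelin adhesion protein, stood at 4.48 and 4.70 against 5.01, 6.13 and 6.92, with no overlap (difference -1.55, SE 0.36, limma adjusted p = 0.0397). Cldn11, the tight junction protein of myelin, stood at 4.74 and 5.09 against 5.69, 6.63 and 7.46, again with no overlap (difference -1.61, SE 0.35, adjusted p = 0.0271). Cnp, a myelin enzyme, stood at 7.42 and 8.27 against 8.0, 9.49 and 10.49, where replicate 2 overlapped (difference -1.55, SE 0.36, adjusted p = 0.0419). A different probe set of Cnp gave 0.53 with no call. Mbp, the most abundant myelin protein, had a larger difference with a wider error, at 6.74 and 8.42 against 7.06 to 11.92 (difference -2.51, SE 0.68, adjusted p = 0.105). Opalin and Mog, both of mature oligodendrocytes, had the opposite sign, at 0.86 and 0.79 (adjusted p = 0.43 and 0.486). The median of the list was -0.26. Each of these 3 calls was lost without either Ptc1+/- array (adjusted p = 0.143 and 0.21 for Mag, 0.135 and 0.137 for Cldn11, 0.23 and 0.0944 for Cnp). Those of Mag and Cnp were also lost without any 1 Math1-cre array or Tlx3-cre replicate 2, and that of Cnp without Tlx3-cre replicate 3 (adjusted p at most 0.0701). Mag was at 8.51 ± 0.51 (SD, n = 6) in tissue without tumour, above the mean of each tumour group. Of 8 genes of oligodendrocyte precursors, none passed, and Olig2 stood at 7.83 and 6.91 against 6.17 to 8.75.

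**Figure D3:**
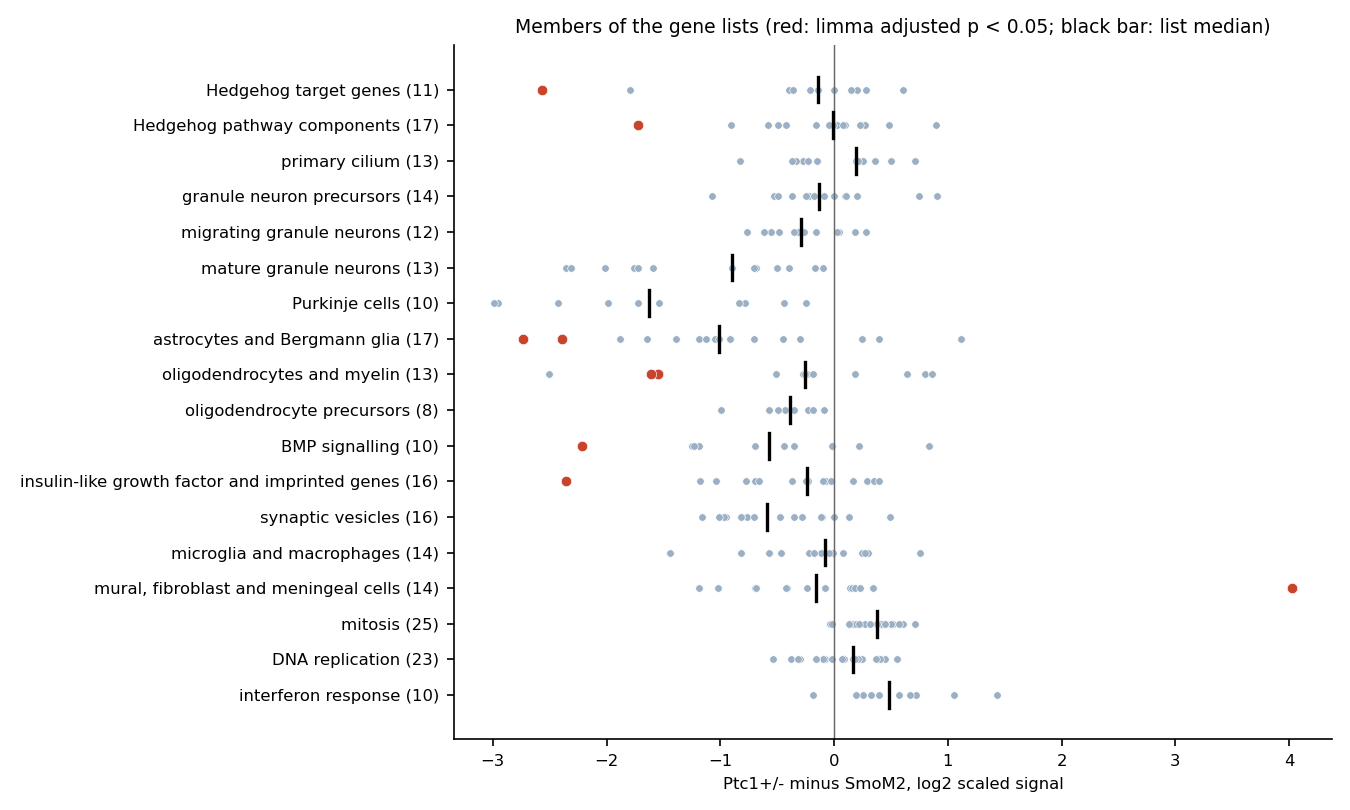
Difference of Ptc1+/- from SmoM2 tumours (horizontal axis, log2) for each tested member of 18 gene lists (points), with the number of members in brackets, the list median as a black bar and members with limma adjusted p under 0.05 in red. Called members are few, and the medians are lowest for Purkinje cells (-1.63), astrocytes (-1.01) and mature granule neurons (-0.90).

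Markers of differentiated cerebellar neurons had negative medians as well, without a member that passed. All 10 tested genes of Purkinje cells, the output neurons of the cerebellar cortex, had a negative sign (median -1.63). Car8, a calcium channel regulator of these cells, stood at 5.36 and 4.74 against 4.70 to 9.96 (difference -2.99, SE 0.90, limma adjusted p = 0.154). All 13 tested genes of mature granule neurons were negative as well (median -0.90), among them Gabra6, a GABA receptor subunit, at 4.37 and 6.00 against 4.34 to 9.83 (difference -2.36, SE 0.88, adjusted p = 0.274). Replicate 1 lay below every SmoM2 array for some of these genes, such as Pcp2, a Purkinje cell protein (3.37 against 4.06 or more), and Cbln3, a cerebellin of granule neurons (3.78 against 4.89 or more). Its mean over the list was 5.24 for Purkinje cells, below the lowest SmoM2 array at 5.55, and 5.45 for mature granule neurons, below the lowest at 5.69. Replicate 2 lay inside the SmoM2 range in both means. Among 16 synaptic vesicle genes 13 were negative (median -0.59) and none passed.

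No gene of the precursor or proliferation lists passed. Among the 14 genes of granule neuron precursors the median was -0.14, and Atoh1 at 10.90 and 10.31 lay inside the SmoM2 range of 8.05 to 11.36 (difference 0.74, SE 0.52, limma adjusted p = 0.584). Barhl1, a homeobox gene of the same lineage, stood at 10.16 and 10.54 against 8.35 to 11.25. Of 25 genes of mitosis 23 had a positive sign (median 0.38), from -0.04 for Cdc20, an activator of the anaphase complex, to 0.71 for Plk1, a mitotic kinase. Over all genes, 7377 of 14037 were positive. The mean over the mitosis list was 9.32 and 9.16, inside the SmoM2 range of 7.71 to 9.52. Among 23 genes of DNA replication 14 were positive (median 0.17). Of 10 interferon response genes 9 were positive (median 0.48), the highest being Irf7, a transcription factor of that response, at 6.34 and 6.71 against 4.12 to 6.55 (difference 1.43, SE 0.45, adjusted p = 0.17). The mean over the interferon list was 6.26 and 5.81, inside the SmoM2 range of 5.17 to 6.54. None of 14 microglial genes passed (median -0.08).

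Id4 and Ndn, each on a signalling list, were also lower. Id4 encodes an inhibitor of basic helix-loop-helix factors that BMP signals induce, and it stood at 5.00 and 6.47 against 6.45, 8.05 and 9.65, with replicate 2 touching the lowest SmoM2 array (difference -2.21, SE 0.42, limma adjusted p = 0.0104). Of the 10 BMP genes tested 1 was lower (Id4), 0 were higher and 9 did not pass (median -0.57). Id3 and Id1, of the same family, differed by -1.24 and 0.84 without passing. Ndn, the imprinted gene of the growth suppressor necdin, stood at 7.51 and 5.76 against 6.92, 9.08 and 10.44 (difference -2.36, SE 0.48, adjusted p = 0.0158), with replicate 1 inside the SmoM2 range. The probe sets of Ndn were not all of one sign and differed by between -2.50 and 0.54. Of 16 tested genes on the list of imprinted and insulin-like growth factor genes 1 was lower (Ndn), 0 were higher and 15 did not pass (median -0.24). Sgce, called higher above, was not on this list. Neither Id4 nor Ndn passed when only the tumour of 1 driver other than hGFAP-cre was the reference. Id4 did not pass without replicate 1 (adjusted p = 0.167), and Ndn did not pass without replicate 2 (adjusted p = 0.53).

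The remaining genes of the 15 largest decreases without overlap came from many functions. Gas7, a growth arrest gene that shapes neurites, stood at 3.44 and 3.77 against 5.81, 7.16 and 10.46 (difference -3.71, SE 0.79, limma adjusted p = 0.0238). This rested on 1 of its 4 probe sets, the others differing by between -0.56 and 0.49. Agt, the angiotensinogen that astrocytes secrete in brain, stood at 4.30 and 3.92 against 5.24, 7.08 and 8.81 (difference -2.91, SE 0.55, adjusted p = 0.0104). Tmem163, a zinc transporter, stood at 6.63 and 7.75 against 8.43, 9.12 and 10.23 (difference -1.89, SE 0.31, adjusted p = 0.00258). Thrsp, a thyroid hormone response gene, and Borcs7, a lysosome positioning subunit, were lower by differences of -2.57 and -2.53, and Kalrn by -2.34. These too rested on 1 probe set each: the others differed by 0.36 and -0.09 for Thrsp, by -0.76 for Borcs7 and by between -1.42 and 0.28 for the 4 others of Kalrn. Gsto1, a glutathione transferase, differed by -2.08, Smim20 by -2.05 and Arsk, a sulfatase, by -1.96. The other probe set gave -2.05 for Gsto1, -0.55 for Smim20 and -0.13 for Arsk. Replicate 2 was at or within 0.02 of the floor for Thrsp, Borcs7, Kalrn and Smim20, and the Ptc1+/- arrays were both at or near it for Fgf5 (a growth factor), Emilin3 (a matrix glycoprotein) and Ccl27a (a chemokine), whose differences of -2.29, -2.20 and -2.27 are bounds. The last of the 15, 8430419K02Rik, differed by -2.28. Without replicate 2, Tmem163 was the 1 gene of this paragraph that passed, and it did not pass without replicate 1 (adjusted p = 0.105).

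Levels in tissue without tumour placed the 68 lower genes. In 67 of them the Ptc1+/- mean lay below the mean of tissue without tumour, and in 58 both Ptc1+/- arrays lay below all 6 of its arrays. In 19 of the 68 the mean of tissue without tumour was below the SmoM2 mean, as for Ptch1 at 10.30 ± 0.24 (SD, n = 6). The comparisons share the Ptc1+/- arrays, so these counts describe levels and are not separate tests. The 68 genes were picked for low Ptc1+/- levels, and the same shares over all genes were not computed, so no excess is read. Against single drivers, all 76 called genes had the same sign against each of the 4 groups. They were picked by their difference from the mean of these same groups, so like signs are largely fixed in advance. The adjusted p was under 0.05 for 63 of them against hGFAP-cre, 20 against Olig2-tva-cre, 17 against Tlx3-cre and 16 against Math1-cre tumours, with 7 genes under it against all 4 (Ptch1, Foxd1, Aqp4, Borcs7, Arsk, Igkv8-30 and Plat, the tissue plasminogen activator). Of these, Igkv8-30 was tested only because of its Ptc1+/- levels, and Borcs7, Arsk and Plat rested on 1 of 2 probe sets. The other probe set of Plat differed by -0.59 (SE 0.67). The 4 comparisons share the Ptc1+/- arrays, and the shares over all genes are not given. These counts and their overlap therefore only describe the called genes. Group sizes differ, and the difference between drivers was not tested.

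The 2 Ptc1+/- tumours differed from each other by a median of 0.59 over the genes tested, within the range of pairs of Olig2-tva-cre tumours (0.29 to 0.70) and above that of Math1-cre tumours (0.27 to 0.33). Ttr, the transthyretin of choroid plexus, stood at 11.20 in replicate 1 and 4.75 in replicate 2, and the SmoM2 tumours spanned 3.37 to 13.70. Krt12, a keratin, and Mid1, a ubiquitin ligase of microtubules, were higher in replicate 1 (9.73 and 10.44 against 5.68 and 6.47), as were Eif5a2 and Cnksr2, which were at the floor in replicate 2. Gpx3, a glutathione peroxidase, Aldh1a1, a retinaldehyde dehydrogenase, and S100a9, a calcium binding protein of neutrophils, were higher in replicate 2, at 9.83, 7.79 and 7.52, against 5.13 and values at the floor in replicate 1. Fat2, a cadherin of granule neurons, and Syndig1, a synapse protein, were also higher in replicate 2, by 7.78 against 3.44 and 7.40 against the floor. These genes had a wide error in the comparison and did not pass it.

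Of the 8 genes called higher, 5 lie on chromosome 6 (Igkv8-30, Slco1a5, Gm26588, Sgce and Hdhd5), by their positions in RefSeq on GRCm38.p6, and 0 of the 68 genes called lower do. Igkv8-30 and Slco1a5 passed the filter only through the Ptc1+/- arrays, and with a filter that left these arrays out 3 of the 5 genes called higher lay on chromosome 6. This was noticed in the data, so the values of all chromosomes are a description. The chromosome 6 shift of an array is the median, over 726 genes, of the difference from the gene's median tumour level. It was 0.30 and 0.23 in the Ptc1+/- tumours and between -0.06 and 0.07 in the 19 SmoM2 tumours, so both lay above all of these. The mean shift of Ptc1+/- over SmoM2 tumours was 0.27, with no test since the chromosome was picked by these values. Tissue without tumour stood between -0.02 and 0.01. On the other chromosomes replicate 1 ran from -0.06 to 0.00 and replicate 2 from -0.14 to 0.16. The highest of these was chromosome 17, where 1 SmoM2 array reached 0.17.

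**Figure D4:**
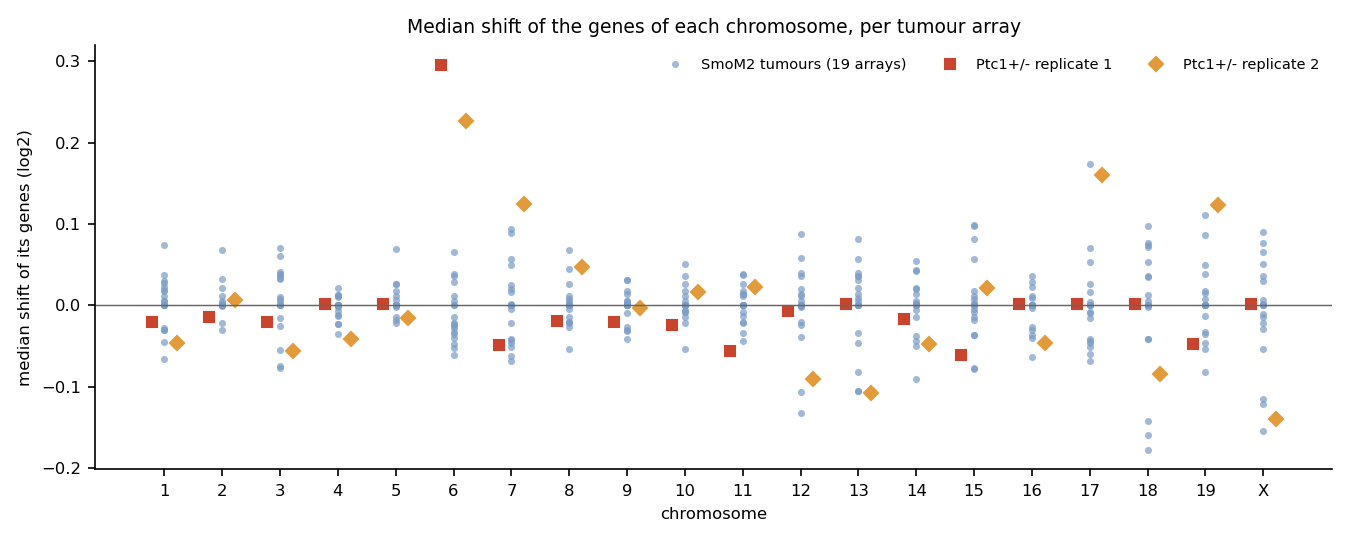
Median log2 shift of the genes of each chromosome (vertical axis) in each tumour array, for 19 SmoM2 arrays (blue points) and the 2 Ptc1+/- arrays (red squares and orange diamonds). On chromosome 6 both Ptc1+/- arrays, at 0.30 and 0.23, lie above all SmoM2 arrays, and replicate 2 scatters more widely than replicate 1 on the other chromosomes.

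Gene by gene, 78.2% of the 726 chromosome 6 genes had a positive difference, against 51.2% of 13311 other genes, and the median difference was 0.36 against 0.01. Both Ptc1+/- arrays lay above every SmoM2 array for 30 of the 726 (4.13%) and for 68 of the others (0.511%), beside the 0.698% over all genes. Of these, 2 and 6 passed the filter only through the Ptc1+/- arrays. Both Ptc1+/- arrays lay below every SmoM2 array for 2 genes of chromosome 6 and 132 others. Among those 30 were Cmas, which activates sialic acid (9.59 and 9.86 against 8.0 to 9.34), Polr1a, the large subunit of RNA polymerase I (7.84 and 7.81 against 5.54 to 7.29), and Wasl, an actin nucleation factor (9.17 and 8.87 against 7.92 to 8.83). None of these 3 passed the test (adjusted p = 0.0631, 0.0699 and 0.114). They were named after their values were seen. Divided into 10 stretches of equal gene number along the chromosome, both Ptc1+/- arrays were above all SmoM2 arrays in 6.

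The shift was also set against other genes of like level. Among 105 chromosome 6 genes with a mean level of 9 or more, the excess over other genes was 0.51 and 0.41 in the Ptc1+/- tumours and at most 0.26 in a SmoM2 tumour. Among 229 genes from 7 to 9 it was 0.41 and 0.25, against at most 0.13. Among 280 genes from 5 to 7 it was 0.20 and 0.07, against at most 0.05, and among 112 genes under 5 it was 0.00 and 0.24, where replicate 1 lay inside the SmoM2 range. Smo, Atoh1 and Ccnd2 are among the genes of chromosome 6, and their differences of 0.48, 0.74 and 0.60 stand beside this shift. DNA was not measured, and the cause of the shift was not tested. With the chromosome 6 genes left out of the test, 3 genes were called higher and 68 lower.

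**Figure D5:**
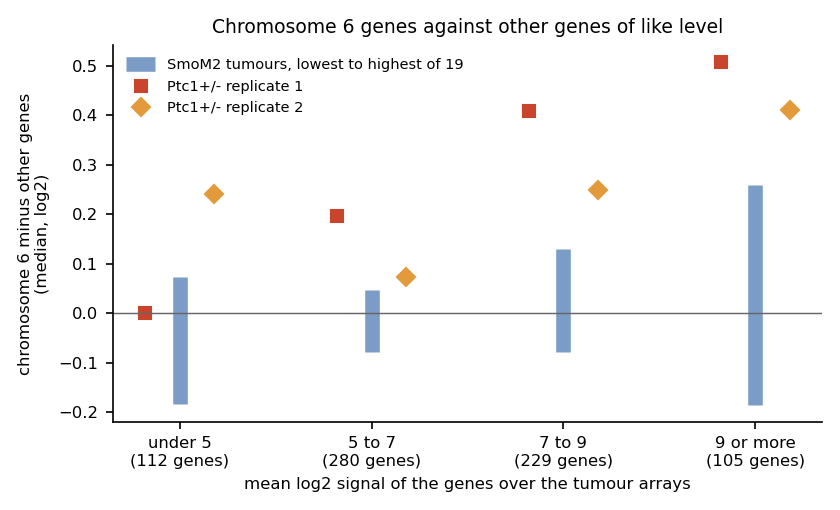
Median log2 excess of chromosome 6 genes over other genes of the same level class (vertical axis) in the 2 Ptc1+/- arrays (squares and diamonds), with the range of the 19 SmoM2 arrays as blue bars, by mean log2 signal (horizontal axis). In the classes from 5 upward both Ptc1+/- arrays lie above the SmoM2 range, and in the lowest class replicate 1 is at 0.00.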

How the data were processed

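The deposited table held intensity values of 45101 probe sets on 27 arrays. The submitters' processing notes name MAS5 as their source, and no version, detection calls or genome build are given in the sources used here. Arrays were multiplied to share a 2% trimmed mean of 123.18, signals under the 20th percentile (10.3) were raised to it, and log2 was taken. After leaving out 64 control probe sets, 31723 probe sets above the table median (45.6) on at least 2 arrays were kept. The annotation lists 35890 probe sets, 34958 with 1 gene and 932 with several, and the other 9211 of the table are unnamed here. The probe set with the highest mean stood for a gene, and 13947 of 14037 genes matched by Entrez number (0 renamed). Limma 3.58.1 in R 4.3.3 fitted a mean for each of the 6 groups on all arrays (21 residual degrees of freedom), with trend and robust moderation, two-sided, adjusted by Benjamini-Hochberg over all genes. SE is the moderated standard error. The fit was tested on simulated data, and a gene not called may still differ.

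Named genes were 7 genes of the design, up to 15 in each direction called without overlap, list extremes and called list members, and the 5 genes in each direction with the largest gap between the Ptc1+/- arrays. Y-linked, Xist, haemoglobin and immunoglobulin genes were left out of the second and last kinds. The comparison, the members and the 38 gene lists were chosen with earlier results of these data known. The chromosome values, 3 pituitary genes and a filter without the Ptc1+/- arrays were added after seeing the data. No 2 arrays were identical.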

Additional observations from a re-analysis of the deposited data

Results flagged for a closer look

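Several arrays stood apart from the rest of their group for a gene named above, by the gap to the nearest array over the group's range. In 28 genes and 86 gene and group combinations 12 did so. Chance gives about 1 in 20 for normally distributed values. Several of the flagged groups hold values at the floor, where that rate does not apply, so no excess is read. Gli1 was at 6.36 in hGFAP-cre tumour 4, with the others at 8.43 to 9.47. That array had the highest log2 3' to 5' ratio of the series (1.88) and was the dimmest hGFAP-cre array (trimmed mean 73.8). Foxd1 was at 5.98 in Olig2-tva-cre tumour 3, the others reaching 4.33. The array of this tumour had a log2 3' to 5' ratio of 1.715 and a trimmed mean of 66.0. Prl was at 5.20 in that same tumour, the others reaching 4.16, and at 5.89 in hGFAP-cre tumour 2, the others again reaching 4.16. Among hGFAP-cre tumours, Thrsp was at 6.93 in replicate 2 (others at most 6.24), 8430419K02Rik at 9.04 in replicate 4 (others at most 6.74) and Gsto1 at 6.80 in replicate 1 (others at least 7.70). The tissue without tumour from Ptc1+/- mice stood apart for Tlx3 at 3.63 (others at least 5.96), Slco1a5 at 4.26 (others at most 3.38), Ccl27a at 6.82 (others at least 7.52) and Tmem163 at 8.26 (others at least 8.72). It was 1 array and the dimmest of its group (trimmed mean 117.5), so genotype and array cannot be told apart. The chromosome 6 shift was 0.066 in Olig2-tva-cre tumour 5 (others at most 0.005), still below both Ptc1+/- arrays.

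Ptch1, Kalrn, Naprt and 2510009E07Rik moved in opposite directions in Ptc1+/- and SmoM2 tumours against tissue without tumour, each change passing limma at an adjusted p under 0.05, as did their difference. Ptch1 was at -1.41 in Ptc1+/- and 1.16 in SmoM2 tumours, a difference of -2.57. A second probe set had Ptc1+/- at 8.16 and 6.84, above the mean of tissue without tumour at 6.56, so the opposite direction did not hold there. Kalrn was at -1.28 and 1.06 (difference -2.34) in 1 of 5 probe sets, and in the other 4 the SmoM2 mean lay below tissue without tumour. Naprt, an enzyme of NAD synthesis, was at -1.20 and 0.64 (difference -1.85), and 2510009E07Rik at -1.28 and 0.53 (difference -1.81).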

How the results depend on the processing

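The number of calls moved widely, from the reported 8 higher and 68 lower genes. It was 1 and 749 with signals not rescaled, where the median gene moved by -0.88 and 99.9% of calls were lower (89.5% as reported). It was 8 and 190 with arrays scaled to a common median (median gene -0.18), 17 and 113 with quantile normalization, 9 and 37 with a floor at the 30th percentile, and 9 and 32 without a floor. With no filter it was 50 and 76, and with the filter counted on arrays other than the Ptc1+/- arrays 5 and 68. Other choices of probe set gave 10 and 40 (mean of a gene's probe sets) or 4 and 25 (largest interquartile range). The 21 tumour arrays alone gave 3 and 23, array weights 1 and 7, and the brightness covariate 1 and 9. The 3' to 5' covariate gave 13 and 68, and leaving out the 5 arrays with the highest such ratio 14 and 87. Leaving out the 7 dimmest arrays, Ptc1+/- replicate 2 among them, gave 21 and 171. Without the Olig2-tva-cre group it was 13 and 85, without hGFAP-cre 7 and 35, without chromosome 6 genes 3 and 68, and over every kept probe set 16 and 69. Leaving out 1 tumour array in turn gave 2 to 19 higher and 33 to 122 lower genes, where the lowest counts came without Ptc1+/- replicate 2 and the highest without replicate 1. In the fits by gene Foxd1 passed under all of these; Ptch1 and Aqp4 passed under all but the choice of the probe set with the largest interquartile range.

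No call of a named gene changed sign except Hdhd5 at -0.038 with signals not rescaled, Cog8 at 0.051 and Gab2 at 0.084 with the mean of probe sets, and Cnp at 0.53, Cog8 at 0.79, Gab2 at 1.10, Mindy1 at 0.69 and Slc6a9 at 0.46 with the largest interquartile range, where another probe set stands for the gene. Of the 45 called genes with several probe sets, 19 had one of opposite sign. The chromosome 6 shift, 0.27 as reported, ran from 0.17 (no filter) to 0.32.

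Deviations of same-numbered arrays correlated between -0.22 and 0.27. No values of different-numbered arrays are given beside these, so they do not decide whether replicate numbers pair the samples. A replicate block over the 21 tumour arrays gave 1 higher and 16 lower genes, 15 of them among the 76.

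With 2 Ptc1+/- arrays, 1 of them dim, the spread of that group is borrowed from the others. Only 2 genes (Itih3 and Pltp) separated granule-lineage from broad-progenitor SmoM2 tumours in the SmoM2 arrays alone, also at 2-fold or more (1909 at an unadjusted p under 0.05), so no place between these was read for the Ptc1+/- tumours.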
